A study of Mus musculus with 48 samples.

Results

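The mouse genome encodes voltage-gated calcium channel subunits in genes named Cacn and voltage-gated sodium channel subunits in genes named Scn followed by a digit, and their mRNA was followed through the developing and adult pancreas. Members were taken by name alone. Every gene counted whose symbol starts with Cacn, or with Scn and a digit, and stands alone on at least 1 probe of the array, which gave 35 genes among 18194 with such a probe. The 35 genes carry 85 probes, and each gene was read from the probe with the highest mean over all arrays. They comprise 9 calcium channel pore genes, 4 alpha2delta genes, 3 calcium channel beta genes, 8 gamma genes, 8 sodium channel pore genes and 3 sodium channel beta genes.

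The study purified pancreatic cells of CD-1 background mice by flow cytometry and hybridized their RNA to Affymetrix mouse arrays, 48 arrays over 13 populations, to follow gene expression from fetal progenitors to adult cells. The Neurog3-null cells (n = 4) were E15 cells of embryos homozygous for an eGFP allele in place of Neurog3, the gene for the transcription factor that endocrine cells need to form. All other populations were labelled wild type, although most carried a reporter transgene. Beta cells, which carried GFP under the mouse insulin promoter, came from E15 with 4 arrays, E17 and P1 with 3 arrays each, and P15 and adults with 4 arrays each. Alpha cells, which carried Venus under glucagon control, came from P1 (n = 4) and adults (n = 5). Endocrine progenitors (E15, n = 3), progenitors (E15, n = 3) and acinar cells (E15, n = 3) were separated with a Neurog3-eGFP transgene and surface markers, and E11 progenitors (n = 4) with a Sox9-eGFP transgene, whose label also persists in some progeny, and adult duct cells (n = 4) were sorted on a surface marker. Adult mice were 8 to 12 weeks old. Fetal and newborn samples were pools of many pancreata. Stages are named as in the article (E11, E15, E17 and P1), where the arrays are labelled E11.5, E15.5, E17.5 or P0, and the titles of the Neurog3-null arrays read E1.5 although their stage label is E15.5.

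A voltage-gated calcium channel is built around an alpha1 pore, which opens when the membrane depolarizes. Its beta subunit sits on the inner side, the alpha2delta subunit sits outside and helps to bring channels to the surface, and some gamma proteins join it, while others, the TARPs, are better known as partners of glutamate receptors. A voltage-gated sodium channel has a single large alpha pore and small beta subunits. In beta and alpha cells these channels carry the action potentials through which calcium enters and triggers secretion of insulin or glucagon.

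The promoters of members that were lower in Neurog3-null cells are shown first, because Neurog3 is a basic helix-loop-helix factor and factors of this class bind E-boxes. RefSeq start sites on GRCm38.p6 gave 37 promoters for 27 of the 35 members, each running from 250 bases before to 50 bases after a start. Cacna1a, Cacna1g, Cacna1h, Cacna2d4, Cacng1, Cacng4, Scn3a and Scn3b were not matched. The E-boxes CAGATG and CAGCTG were searched on both strands, and matches stand in capitals (CAGATG on the other strand reads CATCTG). Shown are Cacna2d1 at chr5:15934441-15934740 (plus strand, the member lower by most in Neurog3-null cells), a Cacna1c start at chr6:119196360-119196659 (minus strand), a Cacnb2 start at chr2:14823842-14824141 (plus strand) and Scn11a at chr9:119825407-119825706 (minus strand). Cacna1c has 3 starts and Cacnb2 has 2, and for each the first start with the most matches was picked. The matches in these 2 windows are therefore a result of the choice.
Cacna2d1: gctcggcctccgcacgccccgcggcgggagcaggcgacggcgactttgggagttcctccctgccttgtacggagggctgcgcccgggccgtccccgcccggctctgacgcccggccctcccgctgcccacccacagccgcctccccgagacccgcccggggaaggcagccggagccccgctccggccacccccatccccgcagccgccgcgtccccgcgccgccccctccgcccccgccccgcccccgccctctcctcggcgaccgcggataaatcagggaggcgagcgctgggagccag
Cacna1c: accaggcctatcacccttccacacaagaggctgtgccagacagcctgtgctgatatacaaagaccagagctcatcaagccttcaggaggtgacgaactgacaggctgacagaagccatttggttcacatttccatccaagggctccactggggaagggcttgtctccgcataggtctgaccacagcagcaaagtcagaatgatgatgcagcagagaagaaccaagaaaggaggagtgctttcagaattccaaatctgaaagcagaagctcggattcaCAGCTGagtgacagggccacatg
Cacnb2: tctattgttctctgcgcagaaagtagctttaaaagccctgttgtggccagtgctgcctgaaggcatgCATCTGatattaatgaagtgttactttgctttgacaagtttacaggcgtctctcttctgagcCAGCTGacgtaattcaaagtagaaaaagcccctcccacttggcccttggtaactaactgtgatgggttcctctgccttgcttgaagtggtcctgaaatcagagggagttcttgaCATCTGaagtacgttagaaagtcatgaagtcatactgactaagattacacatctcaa
Scn11a: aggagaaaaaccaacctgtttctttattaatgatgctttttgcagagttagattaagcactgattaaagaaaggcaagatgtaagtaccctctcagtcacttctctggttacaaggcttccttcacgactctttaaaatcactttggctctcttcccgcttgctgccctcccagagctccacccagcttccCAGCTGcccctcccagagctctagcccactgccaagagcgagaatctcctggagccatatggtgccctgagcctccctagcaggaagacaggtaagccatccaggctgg
The Cacna2d1 window held neither motif and was 80.0% G and C. The Cacna1c and Scn11a windows each held 1 CAGCTG, and the Cacnb2 window held 2 CAGATG and 1 CAGCTG. Among all member promoters, 6 of 37 (16.2%) held CAGATG and 13 of 37 (35.1%) held CAGCTG, against 17.2% and 16.3% of all 32851 mouse promoters of this length. Among 15 promoters of the 8 matched genes that were lower in Neurog3-null cells, 3 (20.0%) held CAGATG and 6 (40.0%) held CAGCTG. Median G and C content was 57.3% in the member promoters and 52.7% in all promoters. A match is a description of the letters and not a bound site.

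Values are log2 expression after RMA, a scale on which 1 unit is a 2-fold difference, and they compare populations for the same probe only. All 48 arrays correlated best with an array of their own population. Ins2 and Gcg, for insulin and glucagon, were both high in all 7 hormone cell populations (means of 13.91 to 14.65 for Ins2 and 13.75 to 14.48 for Gcg). Gcg also averaged 13.68 in E11 progenitors. The study states that such abundant mRNAs can saturate array probes. It measured insulin and glucagon mRNA by quantitative PCR in sorted adult alpha and beta cells. The array values of these genes therefore do not measure how well the 2 cell types were separated. Neurog3 averaged 10.57 in Neurog3-null cells (10.29 to 10.97), against 13.40 in endocrine progenitors (13.34 to 13.44) and 11.68 in E15 progenitors (11.43 to 11.98). Whether its probe lies in the replaced part of the gene was not given in the sources used here. Markers of other cells moved with the populations, although the sorting protocol describes the exclusion of leukocytes and erythroid cells by CD45 and Ter119. A list of leukocyte genes averaged 10.93 in Neurog3-null cells, 11.08 in adult duct cells and 11.14 in adult beta cells, against 5.17 to 5.76 in E11 and E15 progenitors, acinar cells, endocrine progenitors and adult alpha cells. Mesenchyme genes averaged 11.51 in E17 beta cells, 12.27 in P1 beta cells and 10.72 in P1 alpha cells, against 6.03 in adult alpha cells and 6.39 in P15 beta cells. Adult alpha arrays split on a list of acinar genes, at 11.93 and 12.09 in the first 2 arrays and 7.49, 7.68 and 8.57 in the rest. In sorted bulk RNA, fewer cells that express a gene and less RNA per cell cannot be told apart.

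Of the 35 members, 29 rose above 100 on the linear scale in at least 1 array and were tested. Cacna1s (the skeletal muscle pore), Cacng1, Cacng3, Cacng6, Cacng7 and Scn10a stayed at or under it in all arrays, and 4 of 10 skeletal muscle genes passed the same filter. A difference was called where its adjusted p was under 0.05 and its size was 1 log2 unit or more. Cacna1g passed 100 in 7 arrays, all of E15, E17 or P1 beta cells, and Scn1a in 5, all of adult alpha cells. The filter admitted both through populations where they were high, so their calls against other populations are descriptions. Cacng5 passed 100 in 4 arrays but in no population mean, so its differences have no exact size. Of the 29 tested members, 25 were called in at least 1 of 10 comparisons and 4 in none. The like share of all genes was not computed. Overlap of arrays is given below for called members only, as a description. The share of all called genes without overlap was not computed either. Population means moved most for Scn3a, which ranged over 7.38 log2 units across the 13 populations, Cacna1h (7.23), Cacna2d1 (7.0), Scn9a (6.10), Scn8a (5.99), Scn7a (5.71) and Cacna1c (5.59).

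**Figure D1:**
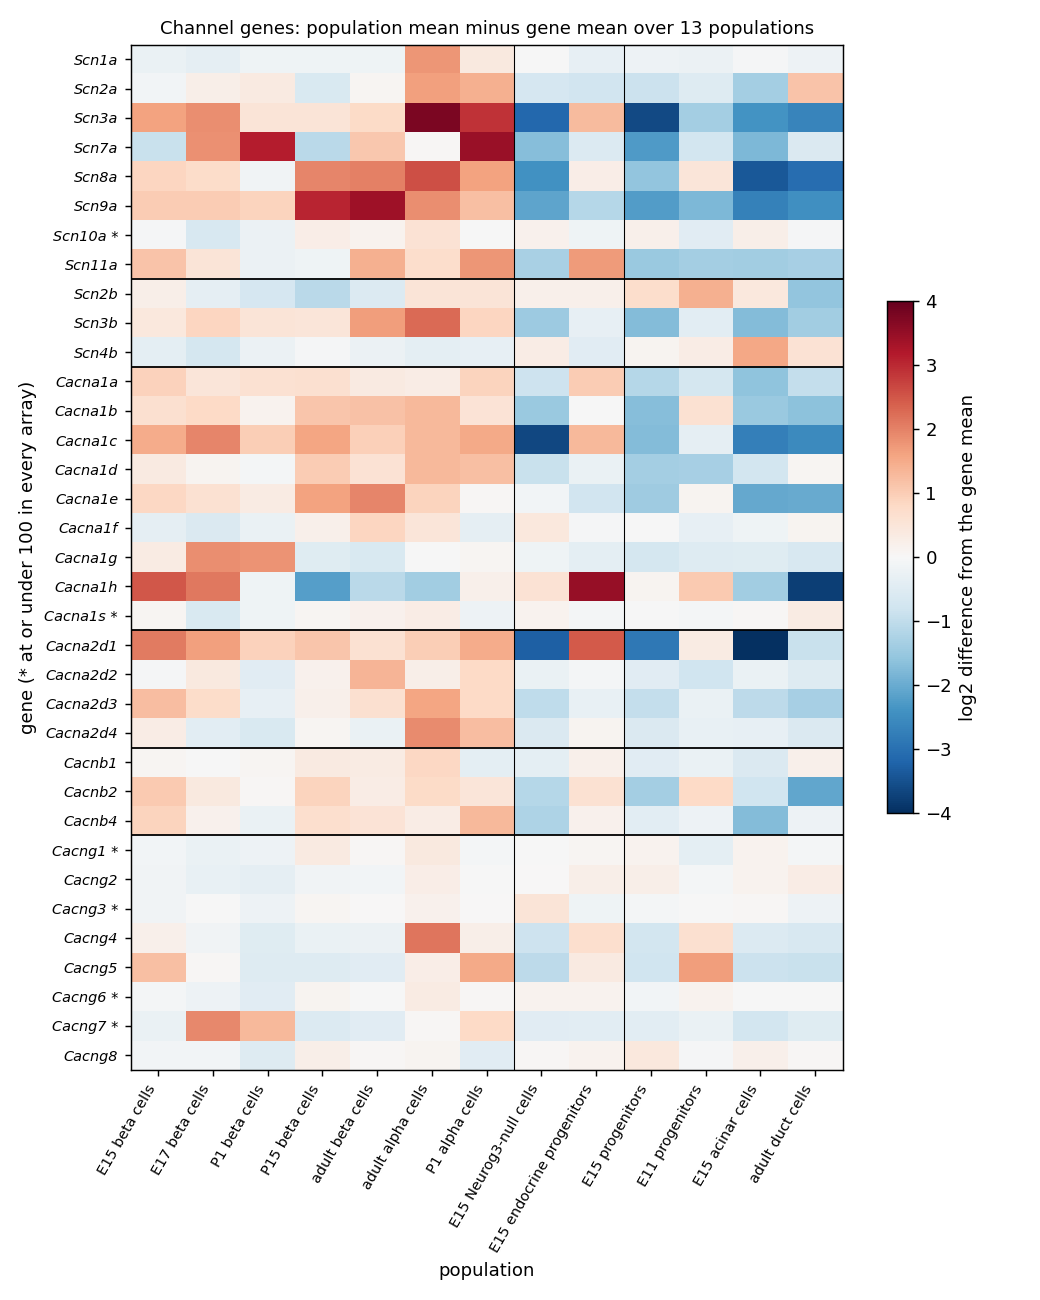
Mean of each population minus the gene's mean over the 13 populations (log2, colour) for the 35 genes, grouped by subunit role, with an asterisk for genes at or under 100 in all arrays. The sodium pore rows Scn3a, Scn8a and Scn9a and the calcium pore row Cacna1c are red in the 7 hormone cell columns on the left, apart from a near-white Scn8a cell in P1 beta cells, and blue in most columns on the right.

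Hormone cells were compared with non-endocrine cells to ask which channel genes mark the endocrine lineages. Non-endocrine cells were the E11 and E15 progenitors, acinar cells and duct cells, grouped by label, although Gcg was also high in E11 progenitors. Of the 35 members, 16 were higher in the 27 hormone cell arrays (beta and alpha cells) and 0 were lower, while 13 of the tested members were not called. Of all 14405 tested genes, each read from its brightest probe like the members, 13.5% were called higher and 10.9% lower. The median difference was 0.89 over all 35 members and -0.01 over all tested genes. The arrays of the 2 groups did not overlap for 6 of the 16, namely Scn3a, Scn9a, Scn11a, Scn3b, Cacna1a and Cacna1c.

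The 2 largest differences were those of sodium pores. Scn3a, a pore abundant in embryonic neurons, ranged over 7.65, 9.45 and 11.83 (lowest, median, highest) in hormone cells, against 4.14, 5.54 and 6.77 in the 14 non-endocrine arrays, a difference of 4.20 ± 0.12 (SE, adjusted p = 2.1e-28, 18.4-fold). Scn9a, the pore of pain-sensing neurons, ranged over 8.67, 9.76 and 11.72 in hormone cells, against 5.05, 5.96 and 6.57 in non-endocrine cells (4.08 ± 0.10, adjusted p = 1.2e-30). Neither gene had a hormone cell array as low as any non-endocrine array. Scn8a, a main pore of adult neurons, ranged over 7.84, 9.87 and 11.31 in hormone cells, against 4.46, 6.06 and 8.92 in non-endocrine cells (3.26 ± 0.13, adjusted p = 9.2e-24), with the overlap coming from E11 progenitors. Scn11a, a pore known from sensory neurons, was higher by 2.13 ± 0.12. Scn7a, a sodium sensor related to the pores, was higher by 2.43 ± 0.23, with wide overlap (4.91 to 10.54 in hormone cells and 4.47 to 8.09 in non-endocrine cells). Of the beta subunits, Scn3b was higher by 2.33 ± 0.11, at 5.92, 6.95 and 8.88 in hormone cells against 4.29, 4.64 and 5.78 in non-endocrine cells, while Scn2b (8.32 in hormone cells and 8.75 in non-endocrine cells) and Scn4b (5.04 and 6.01) were not called.

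Of the 9 calcium pores, 6 were higher. Cacna1c, an L-type pore of heart and beta cells, ranged over 8.75, 9.61 and 10.82 in hormone cells, against 5.18, 6.21 and 8.05 in non-endocrine cells, a difference of 3.22 ± 0.11 (adjusted p = 7.3e-26). Its L-type relative Cacna1d was higher by 1.48 ± 0.07 and stood far above 100 in all 48 arrays, with a lowest non-endocrine value of 9.63. The R-type pore Cacna1e ranged over 6.14, 7.53 and 9.24 in hormone cells, against 4.57, 4.91 and 7.02 in non-endocrine cells (2.24 ± 0.20). The N-type pore Cacna1b (1.87 ± 0.09), the P/Q-type pore Cacna1a (1.70 ± 0.14) and the T-type pore Cacna1g (1.01 ± 0.10) were also called. Cacna1g lay at the threshold and lost the call without any of 10 single arrays (as at 0.99), with array weights (1.00), after a second quantile normalization (0.93) and in the methods' t-test (0.89). The T-type pore Cacna1h was not called, at 8.38 in hormone cells and 7.39 in non-endocrine cells, a difference of 0.99. Among the other subunits, Cacna2d1 was higher by 3.25 ± 0.17 (10.25, 11.33 and 12.36 in hormone cells, against 5.21, 8.58 and 10.57 in non-endocrine cells), Cacna2d3 by 1.59 ± 0.12, Cacnb2 by 1.42 ± 0.09 and Cacnb4 by 1.16 ± 0.22. None of the 8 gamma genes was called on the probe used, though a second Cacng4 probe was higher by 1.38, against 0.53 for the one used.

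Of 17 tested partners and regulators of these channels, 9 were higher and 2 lower. The largest rises were those of Rimbp2, which ties calcium channels to the release machinery (5.61), Unc80, a subunit of the sodium leak channel (4.60), and Nalcn, its pore (3.42), and the falls were those of Rims1 (-1.44) and Cachd1 (-1.41). All 11 tested stimulus-secretion genes were higher, led by Snap25 (6.30), Syt13 (4.82) and Kcnma1 (4.51). Of the marker lists, 12 of 15 leukocyte genes, 9 of 12 endothelial genes, 9 of 12 mesenchyme genes, 6 of 8 neuron genes and 4 of 5 delta cell genes were also higher in hormone cells, and 3 of 9 acinar genes were lower. Their part in the channel differences was not tested. P15 beta and adult alpha cells were compared with E11 and E15 progenitors, a choice made after seeing the data. Leukocyte list means were 7.33 and 5.63 in these hormone cells, against 5.17 and 5.76 in the progenitors. Endothelial means were 6.11 and 5.51 against 5.02 and 5.36, and mesenchyme means 6.39 and 6.03 against 7.24 and 7.13. The lists were thus not equal between the 2 sides. Between these populations 16 members were higher and 2 lower, with Scn3a at 4.63, Scn9a at 4.46 and Cacna1c at 2.47. In the comparison of all hormone cells without E11 progenitors, also chosen after seeing the data, 18 were higher and 1 was lower. With the mean of all probes of a gene, Cacna1d (1.00) and Cacnb4 (0.73) were no longer called.

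**Figure D2:**
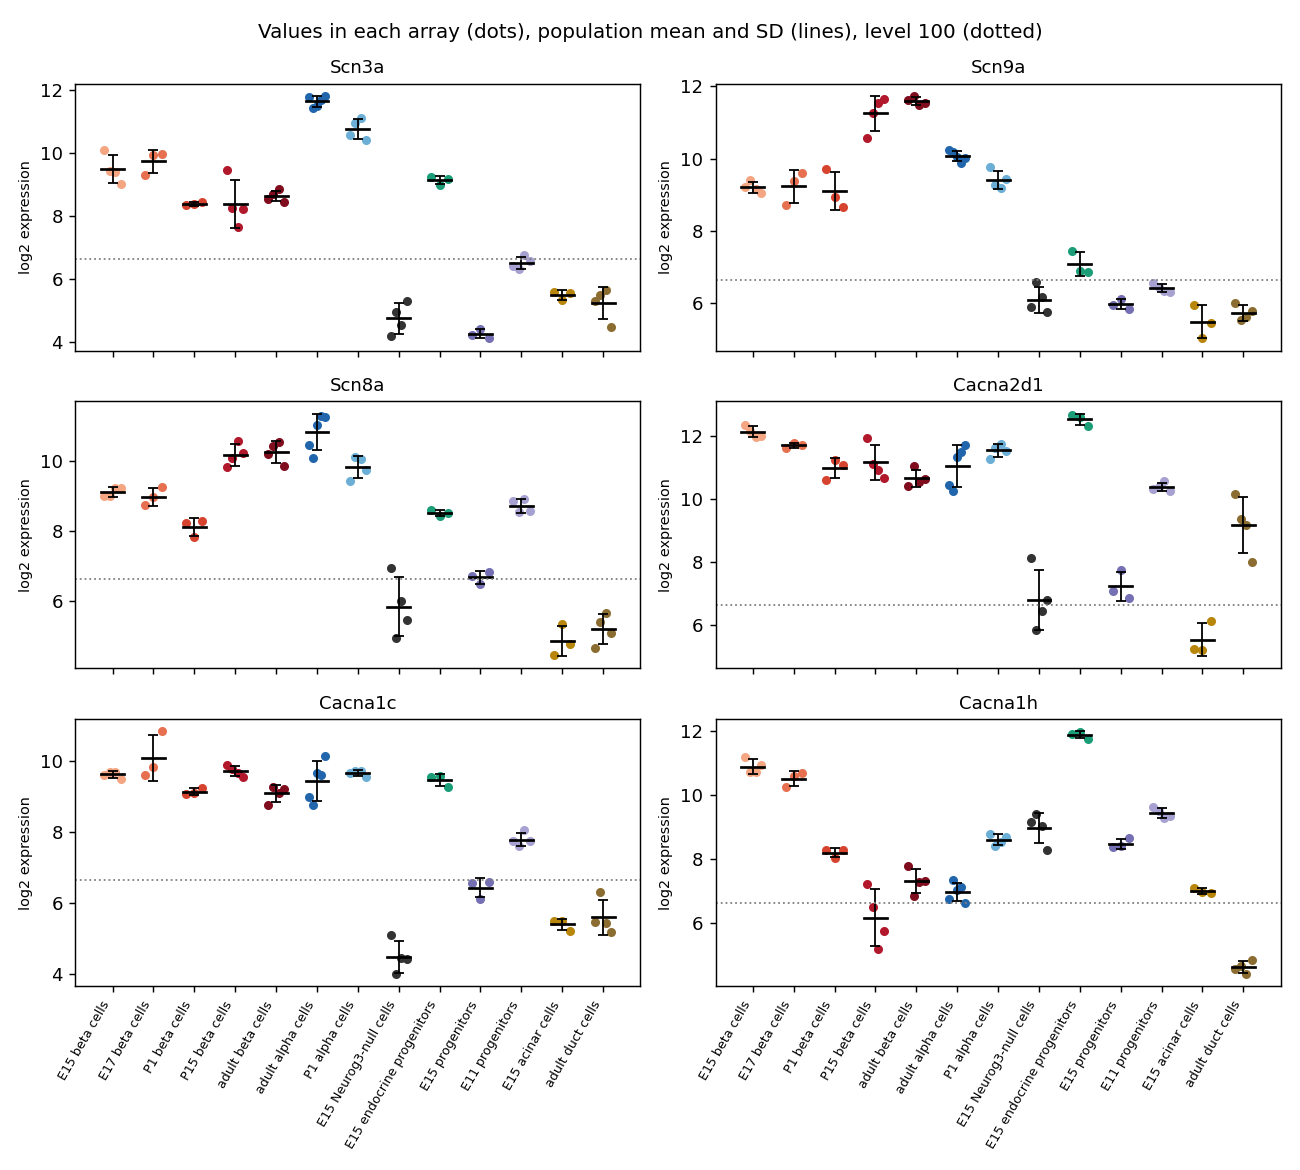
Log2 expression of Scn3a, Scn9a, Scn8a, Cacna2d1, Cacna1c and Cacna1h in each of the 48 arrays (dots), with the population mean and SD (lines) and the level of 100 (dotted). Scn3a is highest in adult alpha cells (11.43 to 11.83), Scn9a in adult beta cells (11.49 to 11.72) and Cacna1h in endocrine progenitors (11.75 to 11.96).

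The E15 endocrine progenitors were set against the E15 progenitors to see which members were already high at the first endocrine stage. Of the 35 members, 15 were higher and 0 lower. None of the 15 overlapped between the 3 arrays of each group, without a share over all genes to compare. The background was 10.7% of genes higher and 11.8% lower, and the medians were 0.66 over the members and -0.03 over all tested genes. Cacna2d1 read 12.66, 12.61 and 12.32 in endocrine progenitors, against 7.06, 7.73 and 6.86 in progenitors, a difference of 5.31 ± 0.41 (adjusted p = 1.3e-13, 39.8-fold). Scn3a read 9.26, 9.0 and 9.19, against 4.25, 4.43 and 4.14 in progenitors (4.88 ± 0.30, adjusted p = 1.5e-16). For both genes each endocrine progenitor array stood more than 4 log2 units above each progenitor array.

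Cacna1h, a pore that opens at low voltage, reached its highest level of all populations here, at 11.88, 11.96 and 11.75 in endocrine progenitors, against 8.37, 8.41 and 8.65 in progenitors (3.39 ± 0.28, adjusted p = 1.2e-12). Scn11a read 8.71, 8.68 and 8.60, against 5.50, 5.94 and 5.02 in progenitors (3.18 ± 0.29, adjusted p = 1.5e-11). Cacna1c read 9.53, 9.56 and 9.26, against 6.57, 6.12 and 6.59 in progenitors (3.03 ± 0.27). The remaining 10 rose by 1.09 to 2.14, namely Cacna1a (2.14), Cacnb2 (1.97), Scn8a (1.84), Scn7a (1.72), Cacna1b (1.69), the gamma genes Cacng4 (1.42) and Cacng5 (1.15), Scn3b (1.41), Cacna1d (1.12) and Scn9a (1.09). Scn9a was thus called with a small difference, at 7.46, 6.90 and 6.88 against 5.97, 6.13 and 5.85 in progenitors, and without the first endocrine progenitor array it came to 0.90 and was no longer called. With the mean of all probes of a gene, Scn8a (0.91), Scn3b (0.74) and Cacna1d (0.58) lost the call. Of the partners, 7 of 17 were higher, led by Rimbp2 (6.73), Fgf14 (3.01), which binds sodium pores, and Rem2 (2.67), which holds calcium channels back, and 4 were lower, among them Gem (-2.13), Rims1 (-1.94) and Cachd1 (-1.93). In this pair of populations 0 of 12 endothelial genes were called, 1 of 15 leukocyte genes was higher and 1 lower, and 7 of 12 mesenchyme, 6 of 8 neuron and 3 of 5 delta cell genes were higher, while 2 of 9 acinar genes were lower. Their part in the result was not tested.

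The Neurog3-null cells were compared with the same endocrine progenitors, so both comparisons share those 3 arrays. In Neurog3-null cells 13 of the 35 members were lower and 0 were higher, against a background of 14.2% of genes lower and 18.7% higher. The arrays did not overlap for any of the 13, without a share over all genes to compare. The medians were -0.63 over the members and 0.1 over all tested genes. The called members were 3 sodium pores, Scn3b, 4 calcium pores, Cacna2d1, the beta genes Cacnb2 and Cacnb4, and the gamma genes Cacng4 and Cacng5.

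Cacna2d1 read 8.11, 5.82, 6.44 and 6.78 in Neurog3-null cells, against 12.66, 12.61 and 12.32 in endocrine progenitors, a difference of -5.74 ± 0.38 (adjusted p = 1.3e-15, 53.6-fold). Cacna1c read 5.09, 4.00, 4.46 and 4.42, against 9.53, 9.56 and 9.26 in endocrine progenitors (-4.96 ± 0.26, adjusted p = 4.7e-19). Scn3a read 4.21, 4.98, 4.54 and 5.33, against 9.26, 9.0 and 9.19 in endocrine progenitors (-4.39 ± 0.28, adjusted p = 2.7e-16). All 4 null arrays of Cacna1c and Scn3a lay under 100, so the sizes of these differences are not exact. Scn11a was lower by 2.98 on the log2 scale, Cacna1h by 2.90 and Scn8a by 2.69, and Cacna1h nevertheless read 9.14, 9.39, 9.02 and 8.29 in Neurog3-null cells, against 11.88, 11.96 and 11.75 in endocrine progenitors. Cacna1a was lower by 1.82, Cacnb2 by 1.74, Cacng4 by 1.52, Cacna1b by 1.47, Cacnb4 by 1.41, Cacng5 by 1.40 and Scn3b by 1.12. Cacnb4 had the widest spread among these (6.52, 4.72, 4.62 and 6.93 in Neurog3-null cells, against 7.12, 7.04 and 7.17 in endocrine progenitors), and lost its call without the second or the third null array (as at -1.09 with an adjusted p of 0.078), in a fit on these populations only (adjusted p = 0.061) and with the mean of its probes (-0.41). Scn3b lost the call with the mean of its probes (-0.58). Scn9a was at -0.97 ± 0.23 and was not called, although 3 of its 4 tested probes were lower.

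**Figure D3:**
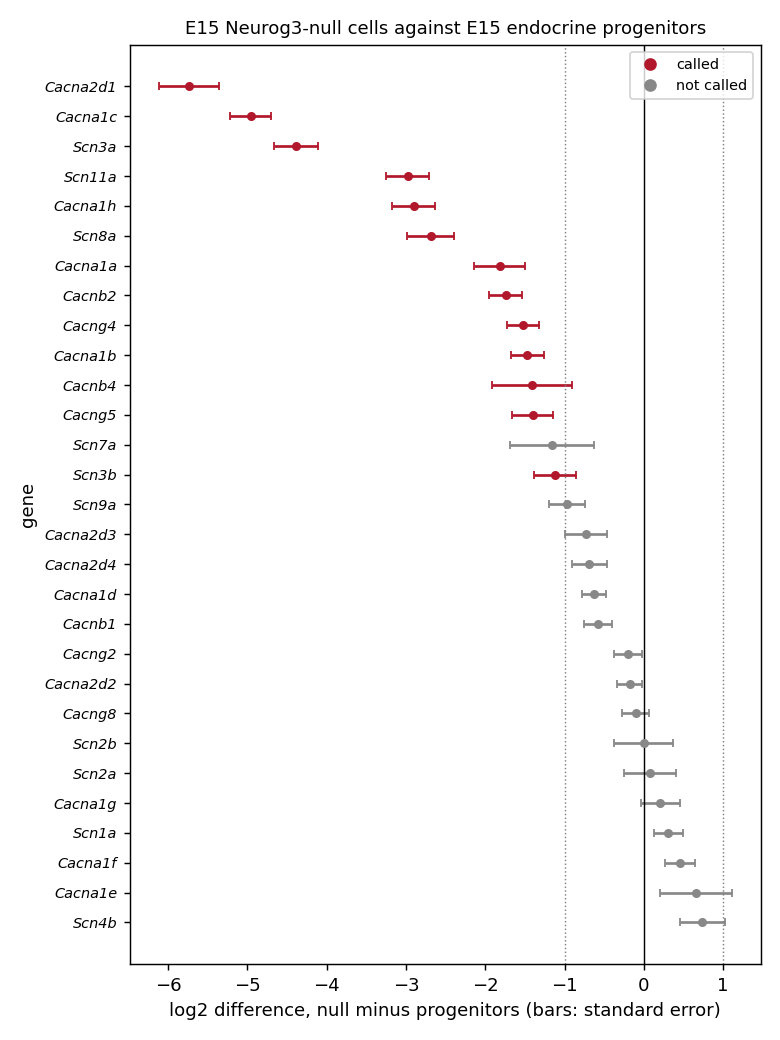
Log2 difference of the 29 tested genes, E15 Neurog3-null cells minus E15 endocrine progenitors, with the standard error from the fit, coloured where called. The 13 called genes all lie left of -1, from Cacna2d1 at -5.74 to Scn3b at -1.12, and the uncalled genes at the bottom lie to the right of 0.

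Channel partners and the secretory machinery moved in the same populations. Of 17 partners, 7 were lower in Neurog3-null cells, led by Rimbp2 (-7.11), Rims2 (-3.12) and Rem2 (-2.94), and 5 were higher, led by Cachd1 (2.81), Fgf12 (1.58) and Fgf11 (1.43). Of 11 stimulus-secretion genes 8 were lower, led by Kcnma1 (-7.48), Syt13 (-6.67) and Snap25 (-5.35), and Slc2a2 was higher (1.52). Leukocyte genes also moved, with 15 of 15 higher in Neurog3-null cells and a list mean of 10.54 to 11.27, against 5.64 to 5.89 in endocrine progenitors. Ptprc, which encodes CD45, averaged 10.66 in Neurog3-null cells and 3.48 in endocrine progenitors, and 7 of 9 acinar and 7 of 12 endothelial genes were higher as well. In the other direction, 6 of 8 neuron genes, 3 of 5 delta cell genes and 3 of 12 mesenchyme genes were lower. The neuron list averaged 4.92 to 5.20 in Neurog3-null arrays, against 7.19 to 7.23 in endocrine progenitors. Their part in the channel differences was not tested. Adult beta cells, of another age and reporter, also had a high leukocyte list (10.76 to 11.54), with Scn3a at 8.47 to 8.86 and Cacna2d1 at 10.40 to 11.04. These adult values do not show what the Neurog3-null sort held.

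Set against E15 progenitors, a population of the same stage without the endocrine label, Neurog3-null cells had 1 member higher and 1 lower, with backgrounds of 9.74% higher and 7.8% lower. Cacna1c was lower still than in progenitors, at 5.09, 4.00, 4.46 and 4.42 against 6.57, 6.12 and 6.59 (-1.93 ± 0.26, adjusted p = 1.3e-07), with all 7 arrays under 100. Cacna1e read 6.38, 7.36, 5.23 and 7.58 in Neurog3-null cells, against 5.56, 5.67 and 4.72 in progenitors (1.32 ± 0.45, adjusted p = 0.017), and the groups overlapped. Leaving out any of 3 arrays (the third of the progenitors, the second or the fourth of the null cells) ended that call, as at 1.03 with an adjusted p of 0.12, and so did a fit on these populations only (adjusted p = 0.085). Scn3a had 4.76 ± 0.49 in Neurog3-null cells (SD, n = 4) and 4.27 ± 0.14 in progenitors (SD, n = 3) and was not called. In this pair 15 of 15 leukocyte genes, 6 of 12 endothelial genes and 3 of 12 mesenchyme genes were higher and 2 of 8 neuron genes lower in Neurog3-null cells, and their part in the result was not tested.

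E15 beta cells were compared with E15 endocrine progenitors, again with those 3 progenitor arrays, to find members that rise after the progenitor stage. 3 members were higher and 0 lower, against backgrounds of 6.69% higher and 4.57% lower. Each of the 3 was without overlap, with no share over all genes to compare. Scn9a read 9.22, 9.42, 9.15 and 9.06 in E15 beta cells, against 7.46, 6.90 and 6.88 in endocrine progenitors (2.14 ± 0.23, adjusted p = 3.5e-09). Cacna1e read 7.52, 7.63, 7.02 and 8.15, against 6.24, 5.75 and 5.94 in endocrine progenitors (1.61 ± 0.45, adjusted p = 0.0072). Cacna2d3, an alpha2delta subunit, read 7.15, 7.40, 7.12 and 7.26, against 5.68, 5.87 and 5.52 in endocrine progenitors (1.54 ± 0.27). Cacna2d1 differed by -0.40 on the probe used (adjusted p = 0.52), but 3 of its 5 tested probes were called lower. Scn3a, at 9.50 ± 0.44 in E15 beta cells (SD, n = 4) and 9.15 ± 0.13 in endocrine progenitors (SD, n = 3), was not called. In the same pair 9 of 12 endothelial, 8 of 15 leukocyte and 7 of 12 mesenchyme genes were higher, which was not tested against the channel genes. Among 17 partners 5 were higher, led by Nalcn (1.74), Cachd1 (1.55) and Fgf12 (1.54).

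Beta cells of P15 and adults were compared with those of E15, E17 and P1 to follow maturation. 3 members were higher and 3 lower, against backgrounds of 6.37% higher and 14.8% lower. Scn9a climbed furthest, with 10.57, 11.53 and 11.72 (lowest, median, highest) in the 8 later arrays, against 8.67, 9.18 and 9.70 in the 10 earlier arrays (2.24 ± 0.14, adjusted p = 2.7e-16). Scn8a ranged over 9.83, 10.22 and 10.60 in the later arrays, against 7.84, 8.99 and 9.26 in the earlier ones (1.49 ± 0.19, adjusted p = 8.7e-09), and with the mean of its probes it came to 0.94 and was not called. These 2 sodium pores did not overlap between the ages. Cacna1e ranged over 7.20, 8.58 and 9.24, against 6.77, 7.49 and 8.15 in the earlier arrays (1.19 ± 0.28, adjusted p = 0.00033), and did overlap.

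The T-type pores Cacna1h and Cacna1g fell without overlap. Cacna1h ranged over 5.20, 7.04 and 7.78 in the later arrays, against 8.03, 10.63 and 11.18 in the earlier ones (-3.12 ± 0.17, adjusted p = 7.7e-19). Its population means ran 10.87, 10.50, 8.2, 6.18 and 7.31 from E15 through E17, P1 and P15 to adult beta cells. Cacna1g ranged over 5.25, 5.38 and 5.87 in the later arrays, against 6.0, 7.57 and 8.48 in the earlier ones (-1.87 ± 0.15), and stood above 100 in E17 and P1 beta cells only among the 13 population means. Only earlier beta cell arrays admitted Cacna1g to testing, so its fall is a description. Scn7a ranged over 4.91, 7.34 and 8.75 in the later arrays, against 5.41, 8.39 and 10.32 in the earlier ones (-1.35 ± 0.33), and the methods' t-test did not call it (adjusted p = 0.25).

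Other cells' markers moved with these falls, and their part was not tested. All 12 mesenchyme genes, all 12 endothelial genes, 6 of 7 Schwann cell and glial genes and 4 of 8 neuron genes were lower in the later beta cells, while 6 of 15 leukocyte genes and 6 of 9 acinar genes were higher. The mesenchyme list averaged 5.86 to 7.63 in P15 arrays and 7.32 to 8.31 in adult arrays, against 9.12 to 12.35 in E15, E17 and P1 arrays. Scn7a was highest in the 3 populations with the highest mesenchyme and endothelial means, at 10.32, 9.95 and 9.84 in P1 beta cells, 9.35, 8.44 and 8.34 in E17 beta cells, and 10.54, 10.48, 10.33 and 10.01 in P1 alpha cells. In other populations, Scn7a averaged 5.99 in E15 beta cells with a mesenchyme mean of 9.55, 5.08 in acinar cells with an endothelial mean of 9.16, and 7.96 in adult beta cells with an endothelial mean of 6.02. The untested gamma gene Cacng7 had its highest means in the same 3 populations (6.20 in E17 beta, 5.57 in P1 beta and 5.10 in P1 alpha cells), and so had Prph, a marker of peripheral neurons (9.51, 9.19 and 8.77), and Sox10 was 8.87, 9.58 and 8.60 there. P15 and E15 beta cells were also compared, a pair chosen after seeing the data. They were the beta cell populations with the lowest leukocyte list means (7.33 and 6.99) but not with like mesenchyme means (6.39 and 9.55). Between them Cacna1h differed by -4.70, Scn9a by 2.04 and Scn8a by 1.07, and all 3 were called. There Scn7a was at -0.17 (adjusted p = 0.81), Cacna1g at -0.82 and Cacna1e at 0.77 (adjusted p = 0.13), and none of these was called.

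**Figure D4:**
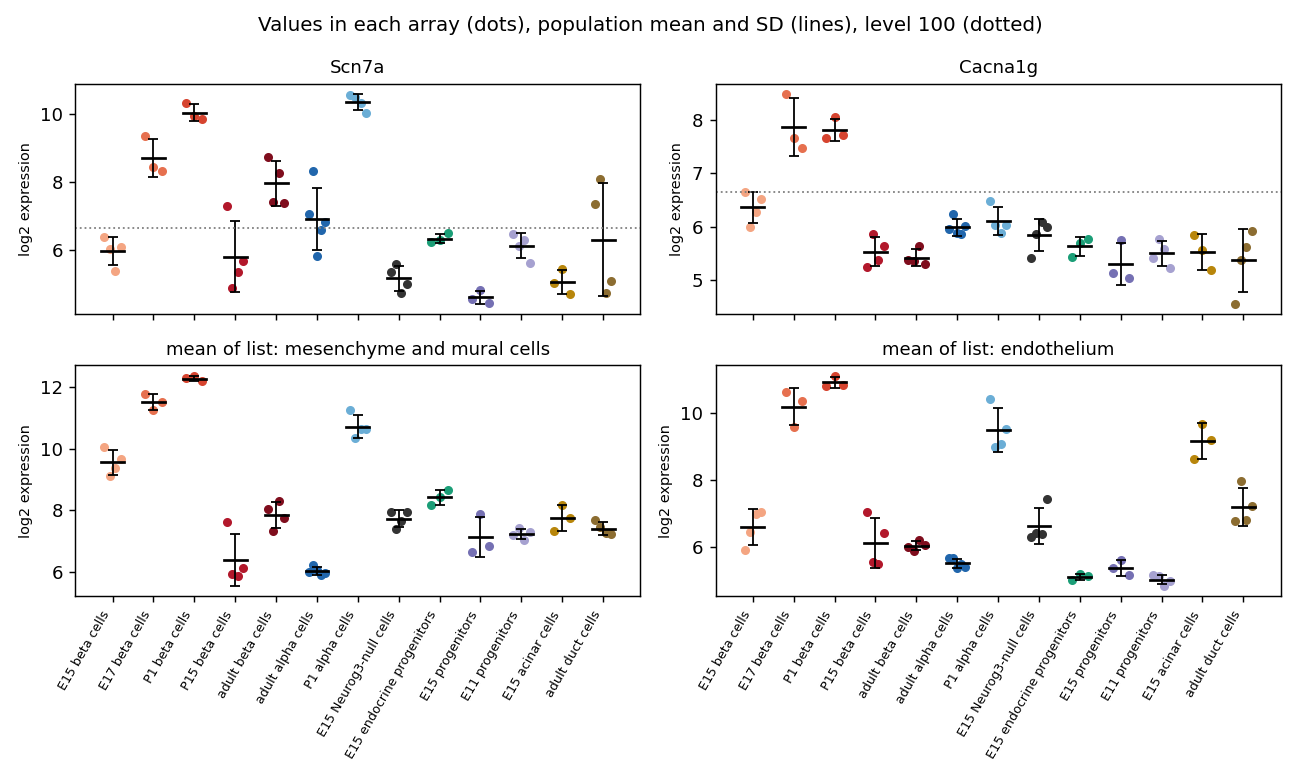
Log2 expression of Scn7a and Cacna1g in each array (dots) with population mean and SD (lines), above the mean of 12 mesenchyme genes and of 12 endothelial genes in the same arrays. The P1 alpha, E17 beta and P1 beta cells are high for Scn7a (8.34 to 10.54) and for both lists, while Cacna1g is high in E17 and P1 beta cells alone (7.47 to 8.48).

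Adult alpha cells were compared with P1 alpha cells in the same way. 4 members were higher and 4 lower, against backgrounds of 6.87% higher and 15.7% lower. All 8 were without overlap, with no share over all genes to compare. Cacng4, a TARP, read 9.50, 10.19, 9.40, 9.40 and 9.22 in adult alpha cells, against 7.49, 7.85, 7.76 and 7.51 in P1 alpha cells (1.89 ± 0.17, adjusted p = 1.1e-11). Scn3b read 8.88, 8.58, 7.76, 8.68 and 7.94, against 6.95, 7.28, 6.74 and 6.79 in P1 alpha cells (1.43 ± 0.23), and the mean of its probes gave 0.97, which was not called. Scn1a, a pore of inhibitory neurons, read 6.94, 6.75, 6.88, 7.65 and 6.77, against 5.74, 5.40, 5.60 and 5.65 in P1 alpha cells (1.40 ± 0.16). Among the 13 populations the Scn1a mean passed 100 in adult alpha cells only. Those arrays alone admitted Scn1a to testing, so its rise is a description. Cacnb1 was higher by 1.21 ± 0.16.

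Of the falls, Scn7a read 7.07, 8.34, 5.85, 6.59 and 6.82 in adult alpha cells, against 10.54, 10.48, 10.33 and 10.01 in P1 alpha cells (-3.41 ± 0.47, adjusted p = 1.2e-07). Cacna1h read 6.77, 7.35, 7.03, 7.12 and 6.63, against 8.78, 8.40, 8.54 and 8.69 in P1 alpha cells (-1.62 ± 0.23, adjusted p = 2.7e-07). Cacng5 fell by 1.27 and Scn11a by 1.07, and Scn11a lost its call without the first P1 or the second adult array (at -1.00 without that P1 array). In this pair all 12 mesenchyme genes, all 12 endothelial genes, 6 of 7 Schwann cell genes, 4 of 8 neuron genes and 9 of 15 leukocyte genes were lower in adult alpha cells, and their part in the channel differences was not tested. Of 17 partners 2 were higher, Nalcn (1.74) and Fgf12 (1.28), and 5 lower, led by Fgf13 (-4.23), Cachd1 (-2.60) and Gem (-2.23).

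The 2 hormone cell types were compared in adults. In adult beta cells 3 members were higher and 6 lower than in adult alpha cells, against backgrounds of 12% higher and 5.61% lower. Scn9a was higher in beta cells, at 11.62, 11.72, 11.49 and 11.53 in adult beta cells, against 10.24, 10.18, 10.05, 9.87 and 10.02 in adult alpha cells (1.52 ± 0.20, adjusted p = 8.8e-08). Scn3a ran the other way, at 8.56, 8.71, 8.86 and 8.47 in adult beta cells, against 11.79, 11.43, 11.52, 11.69 and 11.83 in adult alpha cells (-3.00 ± 0.25, adjusted p = 5.3e-13, 8.00-fold). Neither gene overlapped between the cell types.

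Cacng4 read 7.35, 7.24, 7.32 and 6.71 in adult beta cells, against 9.50, 10.19, 9.40, 9.40 and 9.22 in adult alpha cells (-2.39 ± 0.17, adjusted p = 2.5e-14). Cacna2d4, an alpha2delta gene known from the retina, read 6.74, 6.76, 6.64 and 6.7, against 9.15, 8.67, 9.04, 8.87 and 8.60 in adult alpha cells (-2.16 ± 0.20, adjusted p = 8.3e-12). Scn1a was lower by 1.94 ± 0.16 in adult beta cells, where all 4 arrays lay under 100 (4.91 to 5.21), and Scn2a (-1.57 ± 0.29) and Scn2b (-1.08 ± 0.33) were lower too. Scn2b lost its call without any of 4 arrays (the second or the third adult beta array, the fourth or the fifth adult alpha array, as at -0.91) and in a fit of these populations alone (adjusted p = 0.14), and the methods' t-test did not call Scn2a (adjusted p = 0.061). A second Scn2b probe of like brightness (mean of 8.50 over all arrays, against 8.52) gave -2.13. On the beta cell side, Cacna2d2 read 8.61, 7.71, 8.40 and 8.23, against 7.11, 7.31, 7.23, 6.79 and 7.24 in adult alpha cells (1.10 ± 0.14), and came to 0.98 without the first adult beta array and 0.40 with the mean of its probes. Cacna1e was higher by 1.07 ± 0.39 (adjusted p = 0.025), overlapped, and lost its call without any of 3 arrays (the first or the third adult beta array or the fifth adult alpha array, as at an adjusted p of 0.064) and in a fit of these populations alone (adjusted p = 0.10). The Scn9a difference was 0.93 with the mean of its probes and was then not called.

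Of 15 leukocyte genes, 15 were higher in adult beta cells, with a list mean of 10.76 to 11.54 against 5.46 to 5.99 in adult alpha cells. Also higher were 8 of 9 acinar, 6 of 12 mesenchyme and 3 of 12 endothelial genes. The first 2 adult alpha arrays, with high acinar genes, also stood apart for some members. Cacnb4 read 5.70 and 6.08 there and 8.23, 8.48 and 7.79 in the rest. Scn3a did not split (11.79 and 11.43 against 11.52, 11.69 and 11.83). The part of these marker genes in the channel differences was not tested. Among partners, Fgf13 was higher (1.2) and 4 of 17 were lower, led by Fgf14 (-1.87), Fgf12 (-1.26) and Rem2 (-1.14). Of the stimulus-secretion genes, Slc2a2, the beta cell glucose transporter (4.49), and Trpm5 (3.96) were higher, and Unc13a (-1.23) and Stx1a (-1.06) lower.

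At P1, beta cells had 1 member higher and 11 lower than alpha cells, against backgrounds of 13.7% higher and 6.39% lower. The arrays of all 12 did not overlap, without a share over all genes to compare. The median was -0.43 over the members and 0.07 over all tested genes. Cacna1g read 7.66, 8.05 and 7.72 in P1 beta cells, against 6.48, 6.03, 5.88 and 6.04 in P1 alpha cells (1.70 ± 0.24, adjusted p = 3.1e-07). Scn3a was lower in beta cells at this age as well, at 8.35, 8.39 and 8.46, against 10.57, 10.96, 11.11 and 10.43 in P1 alpha cells (-2.37 ± 0.28, adjusted p = 1.1e-08). Cacng5 read 4.49, 4.42 and 4.02 in P1 beta cells, against 5.93, 6.5, 6.96 and 6.01 in P1 alpha cells (-2.04 ± 0.26). Both Cacng5 means lay under 100, so the size is not exact. Scn11a read 7.06, 6.20 and 6.98, against 8.95, 8.59, 8.76 and 8.65 in P1 alpha cells (-1.99 ± 0.27).

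Cacna2d4 read 6.71, 6.30 and 6.12 in P1 beta cells, against 7.78, 8.27, 9.04 and 7.80 in P1 alpha cells (-1.85 ± 0.22). The others lower in P1 beta cells were Scn8a (-1.73), Cacnb4 (-1.57), Cacna1d (-1.30), Cacna2d2 (-1.26), Scn2b (-1.19), Cacna2d3 (-1.12) and Scn2a (-1.09). Single arrays decided 3 of these calls. Without the first P1 beta array Scn2a came to -0.87 and Scn2b to -0.96, and without the third P1 alpha array Cacna2d3 came to -0.97. With the mean of all probes of a gene, 7 members were called in place of 12. Of the marker lists, 13 of 15 leukocyte, 8 of 12 mesenchyme and 8 of 12 endothelial genes were higher in P1 beta cells, and their part was not tested. Among partners, Cachd1 (1.89) and Rrad (1.79) were higher and 6 of 17 lower, led by Fgf14 (-2.95), Nalcn (-1.40) and Ank3 (-1.29).

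The change between P1 and adulthood was then compared between beta and alpha cells as an interaction, the adult minus P1 difference of beta cells minus that of alpha cells. It was positive for 6 members and negative for 3, against backgrounds of 11.8% and 11.6% of genes. Scn11a showed the most, with 1.64 in beta cells and -1.07 in alpha cells (interaction 2.71 ± 0.36, adjusted p = 2.8e-07). Cacna2d2 changed by 1.81 in beta cells and -0.55 in alpha cells (2.36 ± 0.21, adjusted p = 4.1e-11). The alpha cell change of Cacna2d2 was not called on its own. Scn9a changed by 2.48 in beta cells and 0.66 in alpha cells (1.82 ± 0.31, adjusted p = 1.5e-05), and Cacng5 by 0.06 in beta cells and -1.27 in alpha cells (1.33 ± 0.35).

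On the negative side, Cacna1g changed by -2.39 in beta cells and -0.11 in alpha cells (-2.28 ± 0.32, adjusted p = 6.4e-07), Cacng4 by 0.23 and 1.89 (-1.66 ± 0.26) and Scn1a by 0.01 and 1.40 (-1.39 ± 0.24). Cacnb4 (1.81 ± 0.66, adjusted p = 0.03) and Scn8a (1.15 ± 0.40, adjusted p = 0.021) were called but depended on single arrays. Cacnb4 lost the call without any of 5 arrays (the first P1 beta, the third adult beta, the first P1 alpha and the first or the second adult alpha array, as at 1.63 with an adjusted p of 0.08), and Scn8a without the second P1 beta or the second adult alpha array (as at 1.01 with an adjusted p of 0.071) and with the mean of its probes (0.30). In the same interaction 15 of 15 leukocyte genes were positive, 6 of 12 endothelial genes were negative, and of 12 mesenchyme genes 4 were positive and 5 negative, which was not tested against the channel genes. Scn7a changed by -2.07 in beta cells and -3.41 in alpha cells, and its interaction was not called.

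**Figure D5:**
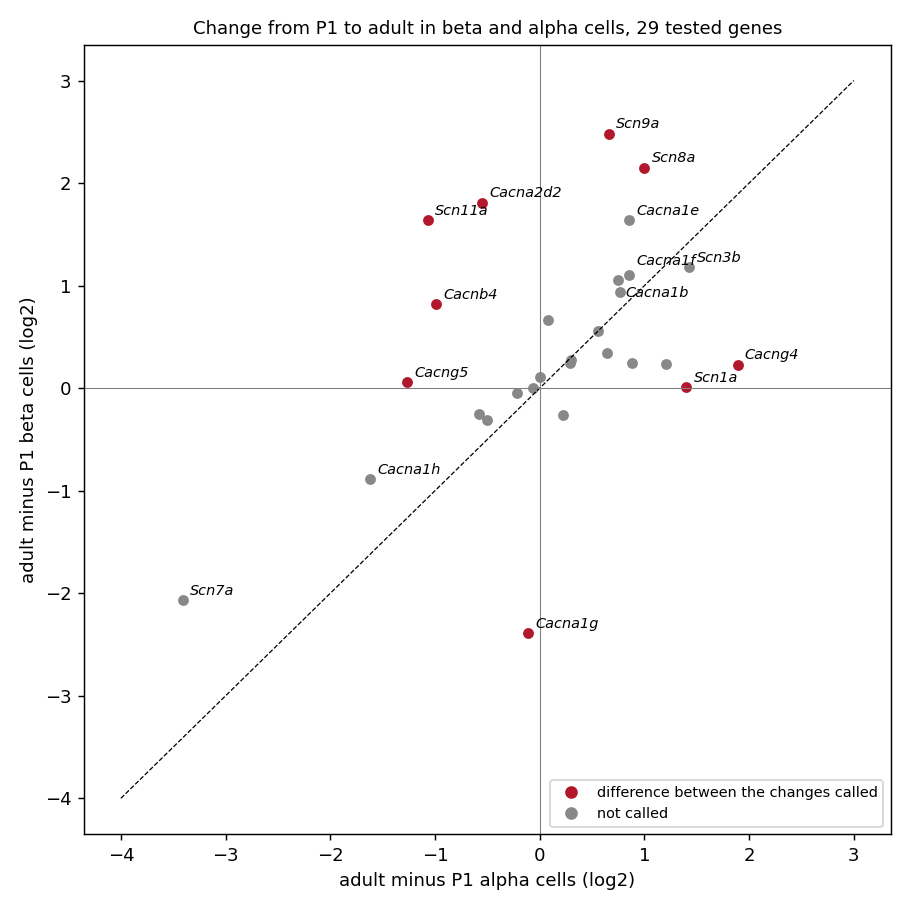
Adult minus P1 log2 difference in beta cells (vertical) against alpha cells (horizontal) for the 29 tested genes, red where the difference between the 2 changes was called, with the line of equal change (dashed). Scn9a (2.48 in beta cells and 0.66 in alpha cells), Cacna2d2 and Scn11a lie above the line, and Cacna1g (-2.39 and -0.11) and Cacng4 lie under it.

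Over all 13 populations the Scn3a means ran 11.65 ± 0.17 in adult alpha (SD, n = 5), 10.77 ± 0.32 in P1 alpha (n = 4), 9.75 ± 0.37 in E17 beta (n = 3), 9.50 ± 0.44 in E15 beta (n = 4), 9.15 ± 0.13 in endocrine progenitors (n = 3), 8.65 ± 0.17 in adult beta (n = 4), 8.40 ± 0.76 in P15 beta (n = 4) and 8.40 ± 0.05 in P1 beta cells (n = 3). Then came 6.52 ± 0.19 in E11 progenitors (n = 4), 5.51 ± 0.15 in acinar (n = 3), 5.25 ± 0.52 in duct (n = 4), 4.76 ± 0.49 in Neurog3-null cells (n = 4) and 4.27 ± 0.14 in E15 progenitors (n = 3). The alpha cell populations stood apart from each other and from beta cells, while E17 beta, E15 beta and endocrine progenitors, and likewise the adult, P15 and P1 beta cells, overlapped with their neighbours. No array lay between 6.77, the highest of E11 progenitors, and 7.65, the lowest of P15 beta cells. E11 progenitors did not overlap with acinar cells, and below them each population overlapped with the next. The members whose 13 population means followed those of Scn3a most closely were Cacna2d3 (r = 0.91), Scn3b (0.90) and Cacna1c (0.89), a description over 13 means that share the array platform and the same cells. Scn4b ran opposite (r = -0.72), with its highest values in acinar cells (7.01, 6.85 and 6.93). On RefSeq's annotation Scn3a, Scn2a, Scn1a, Scn9a and Scn7a lie in 1 cluster on chromosome 2 with 3 other protein-coding genes between them, yet their highest population means were in adult alpha cells (Scn3a, Scn2a and Scn1a), adult beta cells (Scn9a) and P1 alpha cells (Scn7a).

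E11 progenitors stood above the other non-endocrine populations for several members. Scn8a read 8.86, 8.54, 8.92 and 8.59 there, Cacna1b 8.16, 7.82, 8.07 and 7.70, Cacnb2 7.56, 7.76, 7.70 and 7.71 and Cacng5 6.76, 6.60, 6.77 and 5.92, and Scn2b had its highest population mean (arrays at 10.01, 9.98, 10.01 and 9.76). No E15 progenitor, acinar or duct array reached these values for any of the 5 genes. Besides high Gcg, E11 progenitors had a stimulus-secretion list mean of 9.19, against 6.68 to 7.75 in those populations. Their neuron list averaged 6.71, against 4.77 to 5.50. Whether the E11 sort held endocrine cells was not tested. Among adult duct cells, which are exocrine, Cacna2d1 read 10.15, 9.36, 9.16 and 8.01, Scn2a read 6.19, 6.29, 6.69 and 5.76, and 2 of the 4 arrays had Scn7a at 7.35 and 8.09 and the others 4.74 and 5.10.

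The 4 tested members called in no comparison were Cacna1f (the retinal L-type pore), Cacng2, Cacng8 and Scn4b. Other probes of a gene did not always follow the one used. A second Cacng8 probe correlated at -0.45 with it over the 13 means and was higher in hormone cells than in non-endocrine cells by 1.68, against -0.27 for the probe used. A second Cacna1c probe followed the first (r = 0.94) but differed by 1.31 between later and earlier beta cells, against -0.21 for the probe used. The other Scn3a probe lay under 100 in all arrays. The 4 other Scn9a probes correlated at 0.88 to 0.99 with the one used, and 3 of them were higher in hormone cells by 5.24 to 5.78.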

How the data were processed

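The authors used RMA under R 2.11.1, and the log2 expression values they deposited cover 45101 probes on 48 arrays and were used unchanged, with 0 per-sample columns left out. Array medians lay between 6.58 and 6.88, and no value was missing. RMA makes a probe's values comparable between arrays and gives no count of molecules, and the number of arrays limits the precision. Gene names came from the platform annotation: 34958 probes carry 1 symbol, 932 several and 9211 none, and only the first were named. Only probes above 100 (linear scale) in at least 1 array were tested. The study describes a filter at 100 in similar words, but it left fewer probes, so the filters differ. The one used here kept 32078 probes and, by the brightest probe of each gene, 14405 genes.

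A model of 13 population means was fitted to all 48 arrays with limma 3.58.1 in R 4.3.3 (35 residual and 3.55 prior degrees of freedom), p-values were adjusted by Benjamini-Hochberg over all tested probes, and a call needed an adjusted p under 0.05 and a difference of 1 log2 unit or more. Background percentages and medians are over those genes. Comparisons of joined groups weight each population equally. The fit was tested on simulated data.

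All 35 members are accounted for. Full values go to Scn3a, to subunits known from islet cells and to up to 4 called members in each direction per comparison, and up to 3 genes in each direction to the lists of partners and stimulus-secretion genes. Members, lists and tests were chosen with earlier results of these data known. The labels number the replicates without naming animals, and the study calls them biological replicates. Its methods count pancreata for each replicate of endocrine progenitors, and mice for each replicate of P15 and adult beta and alpha cells. For the other populations they do not state that replicates were separate pools. The p-values measure the spread between the arrays of a population, and the independence of these arrays could not be checked. Deviations of same-numbered arrays correlated at -0.282 to 0.302, and in no comparison did all pairs pass 0.1. However, 2 of 3 pairs passed it for endocrine progenitors against E15 progenitors. So did 2 of 4 pairs for adult against P1 alpha cells and for adult beta against adult alpha cells. The methods describe E15 progenitors, endocrine progenitors and acinar cells as sorted from pooled Neurog3-eGFP pancreata. Whether same-numbered arrays shared a pool was not stated, and the main fit used no pairing. Alternatives were other filters, a second quantile normalization, array weights, fits on the compared populations only, a replicate block, the methods' t-test, the mean of all probes of a gene, no minimum difference, and leaving out each array. Promoters came from RefSeq (GRCm38.p6) and were matched by symbol.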

Additional observations from a re-analysis of the deposited data

Results flagged for a closer look

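In 5 of 176 population groups of 4 or 5 arrays, 1 array of a member stood far from the others of its population, where chance flags about 1 in 20 groups. Cacna1a read 8.46 in the first Neurog3-null array and 8.13 to 8.14 in the others, and 8.72 in the first P15 beta array and 9.90 to 10.05 in the others. Cacng4 read 6.71 in the fourth adult beta array and 7.24 to 7.35 in the others. Scn1a read 4.79 in the second E15 beta array and 4.98 to 5.02 in the others, and 7.65 in the fourth adult alpha array and 6.75 to 6.94 in the others.

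For 9 members the change between P1 and adulthood differed between beta and alpha cells in the test of the difference itself. The change in beta cells minus that in alpha cells was 2.71 for Scn11a, 2.36 for Cacna2d2, 1.82 for Scn9a, 1.81 for Cacnb4, 1.33 for Cacng5, 1.15 for Scn8a, -1.39 for Scn1a, -1.66 for Cacng4 and -2.28 for Cacna1g.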

How the results depend on the processing

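No member's call changed its direction under any alternative. Over 8 alternatives and 3 choices of populations, 703 calls kept their side of the threshold and 45 lost it, 17 of them with the mean of all probes of a gene, and the cause was not tested. Calls whose probe failed the stricter filter were counted neither as kept nor as lost. That filter therefore covered 68 calls, against 93 with no probe filter. Without the minimum difference of 1, which by construction calls more, 28 members were called in hormone against non-endocrine cells, 20 in Neurog3-null cells against endocrine progenitors, 4 in Neurog3-null cells against E15 progenitors, 9 in E15 beta cells against endocrine progenitors and 17 each in later against earlier beta cells, adult against P1 alpha cells and adult beta against adult alpha cells. For Neurog3-null cells against E15 progenitors, a fit on these populations only and the methods' t-test each called 1 member in place of 2. The stricter filter (above 100 in at least 24 arrays, fewer probes tested) called 4 in adult against P1 alpha cells in place of 8, and the mean of all probes called 7 in P1 beta against P1 alpha cells in place of 12. Leaving out each array gave 15 to 17 members for hormone against non-endocrine cells, 14 to 15 for endocrine progenitors against E15 progenitors, 13 to 14 and 1 to 3 for Neurog3-null cells against endocrine progenitors and against E15 progenitors, 3 to 4 for E15 beta cells against endocrine progenitors, 6 to 6 for later against earlier beta cells, 7 to 10 for adult against P1 alpha and for adult beta against adult alpha cells, 10 to 12 for P1 beta against P1 alpha cells and 7 to 10 for the interaction.

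In the labels, same-numbered arrays share only a number, although the deviations of some were correlated. With the number as a replicate block, the counts in the order of the report were 17, 15, 14, 3, 4, 6, 9, 7, 12 and 7. The calls that ended under the block were Cacna1e (0.69, adjusted p = 0.12) and Scn2b (-0.79, adjusted p = 0.089) between adult beta and adult alpha cells, and Cacnb4 (1.80, adjusted p = 0.076) and Cacng5 (1.26, adjusted p = 0.055) in the interaction. The methods' t-test could not be run for the interaction. P15 beta and adult alpha cells against E11 and E15 progenitors (18 members), P15 against E15 beta cells (8) and hormone cells against non-endocrine cells without E11 progenitors (19) were chosen after seeing the data. Differences to a population at or under 100 on the linear scale have no exact size, and members named by several symbols or none were not measured.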
